A study of Rattus norvegicus with 18 samples.

Results

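Igfbp3 and Igfbp5 encode insulin-like growth factor binding proteins 3 and 5, and their transcripts were followed here in whole rat kidney after ischemic injury. They were taken as the clones of a spotted cDNA array that carry these gene symbols, which gave 2 clones, 1 per gene, among 2304 clones in all. The genes were chosen by their values on these same arrays, both in the comparison of injured with sham-operated kidneys and in the comparison of sham-operated kidneys with one another. Their values in those comparisons are therefore a description, without a test. Across the array 4 clones carry an Igfbp symbol, and the other 2 belong to Igfbp2 and Igfbp6.

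The RNA came from 12 rats: 6 underwent 52 min of ischemia with reperfusion and then 35 days of recovery (ARF rats, for acute renal failure), and 6 were sham-operated. Strain, sex and age of the rats are not given in the sources used here. Each of the pairs A to F put 1 sham and 1 ARF rat on 2 arrays with the dyes Cy3 and Cy5 exchanged, giving 12 arrays. On another 6 arrays, named R1 to R6, both channels held sham rats. The arrays held 914 to 2786 values for 4608 spots.

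The insulin-like growth factors IGF1 and IGF2 circulate and act in tissues largely bound to IGFBPs, which hold the growth factor away from its receptor until a protease cleaves the carrier or the complex reaches the cell surface. IGFBP3 is the main carrier in blood, where it forms a complex with IGF and the acid-labile subunit. IGFBP5 binds extracellular matrix and is made by many mesenchymal cells. In the kidney both are known mainly from interstitial, endothelial and glomerular cells, and the IGF system has long been studied in renal growth and in repair after ischemia.

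Each value below is a deposited log ratio of the 2 channels of an array. Neither its log base nor which channel is the numerator is given in the sources used here. Both dye orientations of a pair correlated above 0 over clones in every pair (r from 0.196 to 0.58), so they were read as turned the same way. This does not settle it, as a dye bias shared by both arrays could also give r above 0. A value above 0 was taken as higher in ARF for a pair, and as higher in channel 2 for a sham-sham array. This reading is an assumption, and in the opposite case every sign turns. If both arrays of a pair are turned the same way, the sizes, and whether genes lie on the same side of 0, do not depend on it.

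Igfbp3, the main IGF carrier in blood, had values on 17 of 18 arrays. With both arrays of a pair averaged, it stood at 0.203 in pair A, 0.012 in pair B, 0.689 in pair C, 0.084 in pair E and 0.362 in pair F. Pair D had no value on the array with sham in Cy3, and the other array gave -0.099. The 5 complete pairs thus all lay above 0, with pair C far above pair B and pair B next to 0. The mean was 0.27 ± 0.269 (SD, n = 5 pairs), so the spread between pairs was as large as the mean. Without pair C the mean was 0.165 (n = 4), and with the single array of pair D counted it was 0.209 (n = 6).

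Single arrays of Igfbp3 often differed between the 2 dye orientations of a pair, though not always in the same direction. With sham in Cy3 it had 0.42 in pair A, 0.071 in B, 0.482 in C, 0.246 in E and 0.348 in F. With sham in Cy5 it had -0.015 in A, -0.047 in B, 0.897 in C, -0.099 in D, -0.078 in E and 0.376 in F. All 5 arrays of the first orientation lay above 0, but only 2 of 6 of the second did, those of pairs C and F. In pair C each array had a value for only 1 of the 2 spots of the clone, so the highest pair value rests on 2 spots in all. Over the 15 arrays with both spots, the spots of Igfbp3 differed by 0.032 to 0.382 (median 0.128) and had opposite signs on 5.

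Igfbp5, the matrix-binding member, had values on all 18 arrays. Its pair values were -0.096 in A, 0.283 in B, 0.375 in C, -0.079 in D, 0.301 in E and 0.574 in F. Pairs B, C, E and F were above 0, and pairs A and D were slightly below it. The mean was 0.226 ± 0.264 (SD, n = 6 pairs), with a spread larger than the mean, and it was 0.157 without pair F (n = 5).

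In contrast to Igfbp3, the 2 dye orientations of Igfbp5 had the same sign in 5 of 6 pairs. With sham in Cy3 its values were 0.031, 0.371, 0.481, -0.023, 0.192 and 0.48 in pairs A to F. With sham in Cy5 they were -0.223, 0.195, 0.269, -0.136, 0.41 and 0.668. Pair A was the exception, at 0.031 against -0.223. The spots of Igfbp5 differed by 0.011 to 0.232 (median 0.083) over 17 arrays and had opposite signs on 1.

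**Figure D1:**
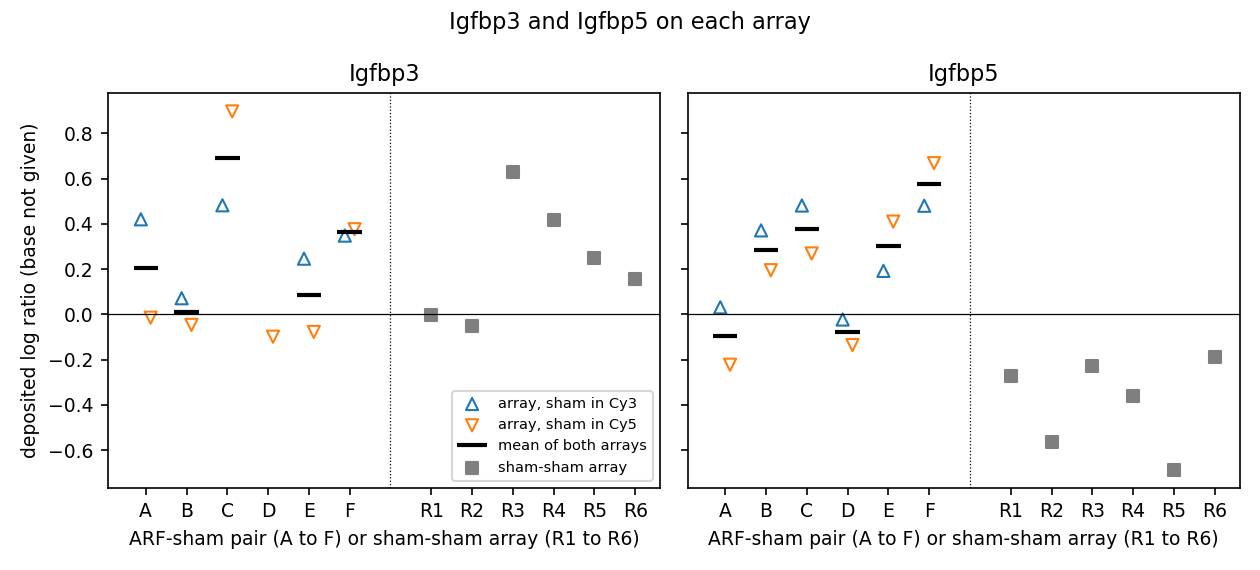
Deposited log ratio (y axis, log base not given) of Igfbp3 and Igfbp5 on each array (x axis). Triangles are single arrays of ARF-sham pairs A to F, black bars the mean of both arrays of a pair, and squares the sham-sham arrays R1 to R6. The sign of a square follows which sham rat was in channel 2, so only sizes compare: for Igfbp5 those of the squares run from 0.189 to 0.688 and those of the triangles from 0.023 to 0.668.

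The means of both genes were set beside those of the array as a whole, as a description. Over the 947 clones measured on both arrays of 4 or more pairs, the median value was 0.0151 and the median SD over pairs 0.168. The size of the mean of Igfbp3 was above that of 94.7% of these clones and that of Igfbp5 above 92%. Their SDs over pairs were likewise above those of 85.5% and 84.2% of clones. A fit over all 947 clones (limma, Benjamini-Hochberg adjusted p under 0.05) called 0.95% of them, 9 clones (0 to 19 with 1 pair left out, 0 without pair E or F), and neither Igfbp3 nor Igfbp5 was called. As this contrast was used in choosing the genes, nothing is read from their ranks or from the missing calls. Taken as log2 the mean of Igfbp3 would be 1.21-fold, taken as a natural log 1.31-fold, and taken as log10 1.86-fold.

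From pair to pair the genes did not stay side by side. In pairs A and C Igfbp5 lay below Igfbp3, by 0.299 and 0.315, and in pairs B, E and F it lay above, by 0.271, 0.217 and 0.212. Their pair values correlated with r = 0.334 over 5 pairs, given as a description. Pairs C and F were high for both genes.

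The sham-sham arrays compared kidneys without ischemia with one another, each pair of rats on 1 array without a dye exchange. Igfbp3 had -0.005 on R1, -0.052 on R2, 0.629 on R3, 0.418 on R4, 0.25 on R5 and 0.157 on R6. Arrays R1 and R2 were near 0 and R3 close to the highest ARF-sham pair. The mean was 0.233 ± 0.259 (SD, n = 6 arrays, which share rats). This mean depends on which sham rat was in which channel, so it does not measure how far sham kidneys departed from one another. In size the sham-sham values ran from 0.005 to 0.629 (median 0.203) and those of the 11 ARF-sham arrays from 0.015 to 0.897 (median 0.246). On single arrays the sizes thus overlapped.

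Igfbp5 was below 0 on all 6 sham-sham arrays, with -0.275 on R1, -0.565 on R2, -0.23 on R3, -0.36 on R4, -0.688 on R5 and -0.189 on R6. The mean was -0.384 ± 0.2 (SD, n = 6 arrays). In size the values ran from 0.189 to 0.688 (median 0.317), and those of the 12 ARF-sham arrays from 0.023 to 0.668 (median 0.246), so the sizes overlapped. The size of the sham-sham mean of Igfbp5 was above that of 98.8% of the 857 clones with at least 4 such arrays, and that of Igfbp3 above 90.8%. In a limma fit over these clones Igfbp5 was 1 of 24 called (2.8%), a count that was 0 without array R4 or R5, 4 without R3 and 13 without R6, and Igfbp3 was not called. The choice of genes had used these values too, so no support is drawn from the ranks or the call.

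The sign of a sham-sham value follows which sham rat was in channel 2, so only the opposite signs of Igfbp3 and Igfbp5 on R3 to R6, and not either sign alone, can be read. A ring of 5 of these arrays (R1, R3, R4, R6 and R2) should sum to 0, apart from 1 dye term and noise, if the labelled rats and directions hold. The sum was -0.00717 for Igfbp3 and -0.0296 for Igfbp5. Over 466 clones, however, the variance of the ring sum was 0.195, against 0.217 if the arrays shared no rats, and 9 of the 16 possible choices of signs gave a smaller variance. Levels of single sham rats are therefore not given.

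Dye bias was measured by the difference between the dye orientations of a pair, which the choice of genes had not used. The choice did use the sham-sham values, which had no dye exchange and can carry dye bias. For each pair the array with sham in Cy5 was subtracted from the other and the result divided by 2. It was tested over the same 947 clones, of which 16.1% (152) were called (limma, Benjamini-Hochberg adjusted). Igfbp3 had a dye effect of 0.0434 ± 0.166 (SD, n = 5 pairs) and was not called (adjusted p = 0.621, limma). Its 95% interval ran from -0.0898 to 0.177. It was 0.217 in pair A, 0.059 in B, -0.208 in C, 0.162 in E and -0.014 in F, so the sign changed between pairs.

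Igfbp5 had a dye effect of 0.029 ± 0.104 (SD, n = 6 pairs) and was not called either (adjusted p = 0.631, limma), with a 95% interval from -0.0614 to 0.12. The part of the dye in the sham-sham values was not tested. Over clones the sham-sham arrays correlated with the dye effect at r from 0.104 to 0.373.

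Igfbp6, which prefers IGF2 over IGF1, was measured less often, on 7 of 12 ARF-sham arrays and 1 sham-sham array. It had 0.149 in pair A, 0.374 in pair E and 0.363 in pair F, a mean of 0.295 ± 0.127 (SD, n = 3 pairs), and 0.318 on the single array of pair C. All 7 arrays lay above 0, from 0.114 to 0.528, while R6 gave 0.075. With fewer than 4 complete pairs it was not tested. Igfbp2, the binding protein of fetal tissues and plasma, had values on 2 arrays, -0.021 in pair C and -0.091 in pair D. Spotted cDNAs can bind transcripts of related genes, and how far the clones of this family tell their members apart was not tested.

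Of 45 listed growth factors, receptors, binding proteins and signalling genes, 20 were on the array and 9 could be tested. None was called (limma), where 0.95% of all clones were. At an unadjusted p under 0.05 (limma) there was 1, where 139 of all 947 clones passed. Of the 9 tested, 6 had a mean above 0, and the median of their means was 0.017, against 0.0151 for all clones.

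The growth hormone receptor Ghr, which drives IGF1 production, had the largest value of these at -0.27 ± 0.282 (SD, n = 5 pairs; adjusted p = 0.252, limma), in size like Igfbp3, and between sham rats it reached -0.354 and 0.219. Rheb, the GTPase that activates mTOR, had -0.123 ± 0.226 (n = 6). The 14-3-3 proteins Ywhah and Ywhab, adaptors of phosphorylated signalling proteins, had 0.112 ± 0.18 (n = 5) and 0.094 ± 0.148 (n = 6). The PI3-kinase subunit Pik3r2 had 0.055 ± 0.156 (n = 6). The kinases Pdpk1 and Akt2 had 0.03 ± 0.217 (n = 5) and 0.017 ± 0.236 (n = 4), and the adaptor Grb2 had 0.008 ± 0.204 (n = 5). For all of these the SD over pairs was larger than the mean.

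The ligands gave few values. Igf1 had both arrays in 3 pairs, with -0.02, 0.037 and 0.206 as its lowest, median and highest value, and lay between -0.294 and 0.011 when sham rats were compared. Igf2 had values on 2 ARF-sham arrays, and the acid-labile subunit Igfals, the third partner of the circulating complex, had 1 complete pair at -0.251. Igf1r, the receptor that carries most IGF signalling, was not analysed here.

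Of 53 genes listed as proteases that cleave IGFBPs or as their binding partners, 24 were on the array and 12 could be tested. Of these, 3 had an unadjusted p under 0.05 (limma), where 139 of all 947 clones did. Only Col1a1 was called (1 of 12, where 0.95% of all clones were called). It is a chain of type I collagen, a matrix protein, and had 0.532 ± 0.208 (SD, n = 4 pairs; adjusted p = 0.0482, limma). All 4 of its complete pairs lay above 0, from 0.239 to 0.714, and pairs C and D were not complete. Between sham rats it lay from -0.013 to 0.487 (4 arrays), so the highest of these exceeded its lowest pair. It was not called with pairs on 1 array kept (0.364, n = 6, adjusted p = 0.187, limma), and its adjusted p ran from 0.0276 to 0.282 over 11 alternatives. The median of the 12 means was 0.045, and 7 lay above 0.

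Klk1b3, a kallikrein of a family whose members can cleave IGFBP3, had the largest value below 0, at -0.439 ± 0.339 (SD, n = 6; adjusted p = 0.093, limma). It was above 0 in 1 of 6 pairs. Kallikrein genes are near-identical copies, so the clone may report several of them. Transferrin, Tf, which binds IGFBP3, had 0.267 ± 0.385 (n = 6). Osteopontin, Spp1, which binds IGFBP5, had 0.221 ± 0.77 (n = 6), from -1.145 to 1.148.

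The basement membrane protein Nid1 had 0.22 ± 0.449 (n = 5). Among lysosomal proteases, Ctsl had -0.208 ± 0.266 (n = 6) and Ctsd, which degrades IGFBPs at acid pH, 0.058 ± 0.374 (n = 6). Plasminogen activator Plat, whose product plasmin cleaves both binding proteins, had 0.085 ± 0.26 (n = 4). None of the genes in these last sentences was called.

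**Figure D2:**
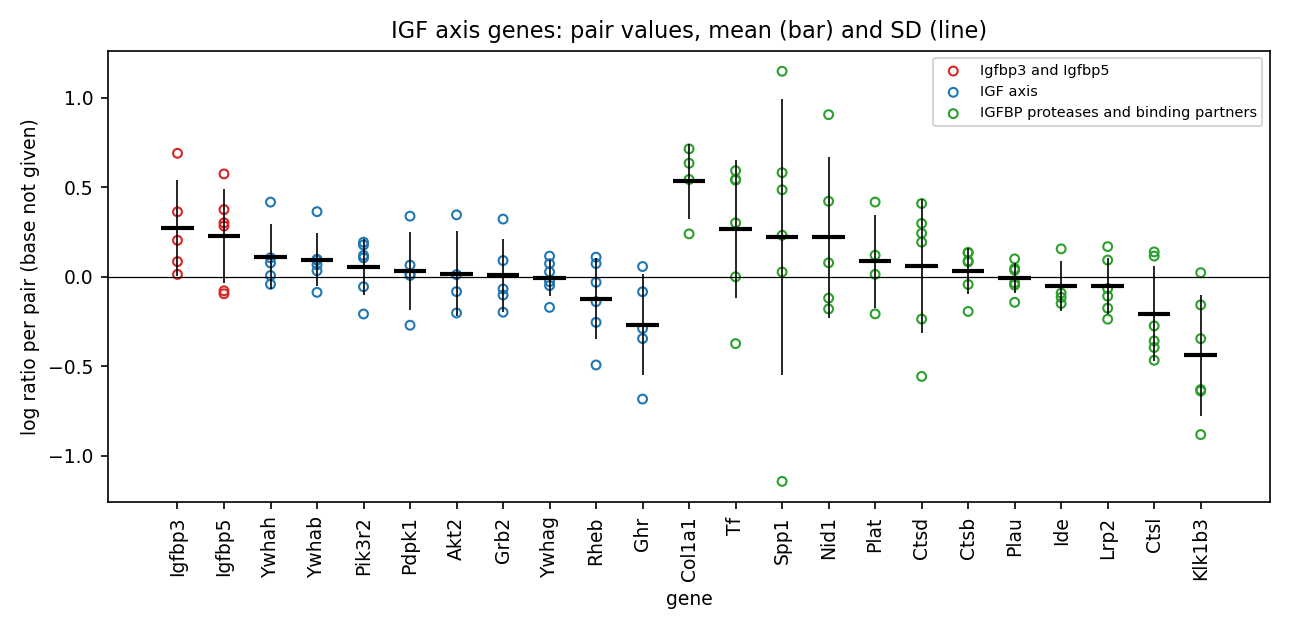
Log ratio per ARF-sham pair (y axis, base not given) for Igfbp3, Igfbp5 and each tested gene of the IGF axis and of the IGFBP proteases and binding partners (x axis). Circles are pairs, thick bars means and thin lines SD. Col1a1, at 0.532, has all 4 of its complete pairs above 0, while Spp1 spreads from -1.145 to 1.148.

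The genes whose pair values were most like those of each binding protein were ranked by Pearson's r, as a description. For Igfbp3, over 5 pairs and 451 named clones, r lay between -0.767 and 0.79 for 90% of clones. The highest were the aminopeptidase Xpnpep1 (r = 0.975), the spectrin Sptan1 (0.971), the signalosome subunit Cops8 (0.947), Scaf1 (0.94) and the glucose-6-phosphatase G6pc1 (0.932). The lowest were ferritin heavy chain Fth1 (r = -0.974), the ribosomal proteins Rpl36 (-0.943) and Rpsa (-0.941), Tf (-0.94) and Rpn2 (-0.93). Tf, listed above as a partner that binds IGFBP3, had its lowest value, -0.374, in pair C, where Igfbp3 was highest. The value of Igfbp3 in that pair rests on 1 spot per array, and how far this ranking depends on it was not tested.

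For Igfbp5, over 6 pairs and 419 named clones, r lay between -0.647 and 0.571 for 90% of clones. The highest were the glucose transporter Slc2a1 (r = 0.882), the phosphorylase kinase subunit Phkg2 (0.862), Cdipt (0.847), the lysosomal sulfatase Arsb (0.837) and Ptprn (0.8). The lowest were the growth factor Bmp6 (r = -0.922), the ornithine aminotransferase Oat (-0.914), Pdcd2 (-0.857), Nutf2 (-0.828) and Ctbp1 (-0.827). Oat was below 0 in every pair, at -0.289 ± 0.243 (SD, n = 6), and furthest below 0 at -0.691. With 5 or 6 pairs, and with each pair sharing its arrays between all clones, values this far from 0 were reached by several clones at either end.

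The tissue was whole kidney, and fewer cells of a type and less RNA per cell cannot be told apart in it. Markers of cells that can make these binding proteins were therefore set beside them. Of 20 markers of fibroblasts, pericytes and smooth muscle 16 were on the array and 10 were tested. Of these 2 were called above 0 and none below (limma), where 0.95% of all clones were called. Col1a1, already given above, is among the 2. In this list 6 had an unadjusted p under 0.05 (limma), where 139 of all 947 clones did. The median of the tested markers was 0.686 in pair A, 0.2 in B, -0.033 in C, -0.05 in D, 0.401 in E and 0.532 in F. A marker without both arrays in a pair is left out of that median, so the medians rest on different clones. Col1a1 was missing in this way from pairs C and D. Between sham rats the median of the listed clones lay from 0.02 to 0.129.

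Igfbp5 was high with these markers in pairs B, E and F and near 0 with them in pair D. It was not so in pair A, where the markers were highest and Igfbp5 lowest. Nor was it in pair C, where the markers with values had a median near 0 and Igfbp5 was 0.375. As the marker clones differ between pairs, how far these medians can be compared was not tested. Igfbp3 was highest in pair C. The part of these cells in the values of the binding proteins was not tested beyond this. Of 18 endothelial markers only Kdr was on the array, with 3 complete pairs, so endothelial cells could not be followed. Few macrophage, podocyte or collecting duct markers were tested (2 of 15, 1 of 10 and 4 of 10), and none was called (limma). Among them 1, 0 and 2 had an unadjusted p under 0.05 (limma), where 139 of all 947 clones did.

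Tubule markers, which check the tissue, were measured as for kidney: 8 of 15 proximal tubule and 6 of 12 loop and distal tubule genes were tested. None of the first was called (limma), and 3 had an unadjusted p under 0.05, where 139 of all 947 clones did. Of the second 1 was called, the growth factor Egf at -0.34 ± 0.156 (SD, n = 6 pairs; adjusted p = 0.0482, limma), and 4 had an unadjusted p under 0.05. The medians per pair of these lists, again over the clones with both arrays in that pair, ran from -0.194 to 0.057 and from -0.458 to -0.089. The loop and distal median was below 0 in all 6 pairs. It was furthest below in pair F (-0.458), where Igfbp5 was highest, and nearest 0 in pair C (-0.089), where Igfbp5 had 0.375. In pair A, where Igfbp5 was lowest, the median was -0.213. A relation between them was not tested.

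**Figure D3:**
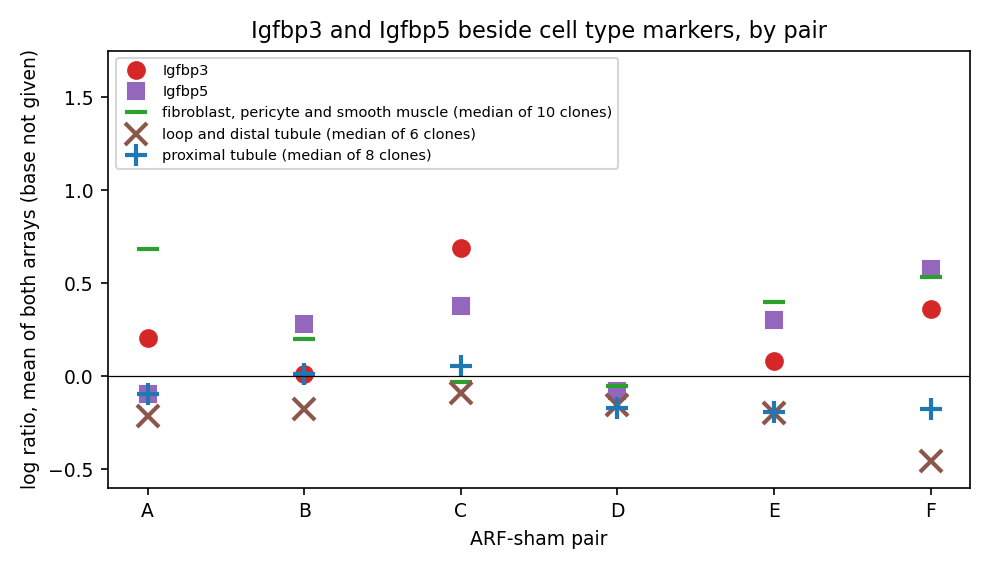
Log ratio per ARF-sham pair (y axis, mean of both arrays, base not given) for Igfbp3 and Igfbp5 and the median of tested marker clones of 3 cell types, by pair (x axis). Each median leaves out clones without both arrays in that pair, so it can rest on fewer clones than were tested. In pair A the fibroblast, pericyte and smooth muscle median is 0.686 while Igfbp5 is -0.096. In pair C this median, which lacks Col1a1, is -0.033 while Igfbp3 is 0.689.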

How the data were processed

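The authors deposited 1 table of normalized log ratios from two-colour cDNA arrays, and per the labels the spots were read with ImaGene 4.1, with weak signals adjusted by an earlier method. Each column had a mean of 0, and 57.1% of cells were empty. The log base, the direction and other steps of normalization are not given in the sources used here. The 2 spots of a clone, which lie 1152 rows apart, were averaged, then the 2 arrays of a pair. The sham-sham columns were put in annotated order by exchanging adjacent blocks of 288 rows. The correlation of where values were present then rose from -0.014 to 0.7. Spots of ribosomal protein genes had values in 92.4% of cells on the ARF-sham arrays. On the sham-sham arrays they had values in 33.3% before and 77.1% after the exchange.

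Of 2304 clones, 1489 had 1 symbol (1483 matched by gene identifier to RefSeq for GRCr8), 32 had several and 783 none; only the first were named. Fits used limma 3.58.1 in R 4.3.3 on pair values against 0, with Benjamini-Hochberg adjustment over all tested clones and a threshold of 0.05, and were tested on simulated data. Rats, as pairs, are the replicates for ARF against sham and for the dye effect; in the sham-sham fit they are the 6 arrays, which share rats and are not independent. Named were both genes, their pathway lists (called genes and up to 8 of the largest means) and the 5 clones at each end of the ranking by r; Igf1, Igf2, Igfals, Igfbp2 and Igfbp6 come from the same lists. The members, lists and tests were chosen with earlier results of these data known.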

Additional observations from a re-analysis of the deposited data

How the results depend on the processing

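The values of Igfbp3 and Igfbp5 for ARF against sham were above 0 in the 16 and 17 alternatives run, some of which (such as limma's trend and robust options) could not move a mean by construction. With each pair left out they ran from 0.165 to 0.334 for Igfbp3 and from 0.157 to 0.291 for Igfbp5. Their dye effects passed in none of 9 alternatives each (adjusted p from 0.171 to 0.999 and from 0.333 to 0.899, limma). With the sham-sham rows in the deposited order Igfbp3 would have 0.566 (1 array) and Igfbp5 -0.162 (2 arrays). Without each sham-sham array in turn Igfbp5 ran from -0.423 to -0.324 and Igfbp3 from 0.154 to 0.29.

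The counts of clones called were less stable, and the cause was not tested. The number of clones tested, in brackets, changed with the setting. The 9 calls for ARF against sham (947) became 15 with arrays centred on their medians (947) and 15 with spot 2 only (842). They were 28 with only sham in Cy3 (1141), 5 with pairs on 1 array kept (1250) and 4 with at least 3 pairs (1111). There were 42 with all 12 arrays and the pair as a replicate block (947), and 3 with no replicate block (565). That last fit used levels of the 12 rats that rest on the sham-sham arrays. With limma's trend and robust options 0 were called (119 at an unadjusted p under 0.05). Without each pair they ran from 0 (68 and 59 at an unadjusted p under 0.05, without E and F) to 19, and the dye calls from 55 to 175. The sham-sham calls were 10 with spot 1 only and ran from 0 (138 and 152 unadjusted, without R4 and R5) to 32 without each array. Fewer clones were tested with a pair, an array or a spot left out. The number of pairs and of spots with values limits the precision.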
